A study of Homo sapiens with 4 samples.

Results

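The enzymes that change drugs, pollutants and reactive metabolites were read as 79 genes of 5 families in A549 cells, a human lung adenocarcinoma line. The genes are the carboxylesterases (CES, 5 genes), aldehyde dehydrogenases (ALDH, 17), cytochromes P450 (CYP, 29), glutathione S-transferases (GST, 14) and UDP-glucuronosyltransferases (UGT1A and UGT2, 14). They were picked by gene symbol from the 17041 genes of the expression table, where 94 symbols matched. Left out were 12 pseudogenes and 3 antisense RNAs, and the pseudogene CES1P1 was kept beside CES1. In the splicing table, 9 of 3768 events belonged to 5 of these genes.

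The tested cells were RBM10 knockdown A549 cells (2 libraries), set against RBM10 wild type A549 cells (2 libraries). RBM10 binds RNA and influences which exons are kept in mature transcripts. Per the labels, the knockdown came from 1 shRNA against RBM10 delivered by lentivirus, followed by puromycin at 1 µg/mL for 10 to 14 days. A control virus or drug selection of the wild type cells is not mentioned in the labels, so effects of transduction and selection cannot be told apart from those of RBM10 loss. All cells grew in the same serum-containing medium, poly-A RNA was sequenced, and the 4 libraries carry the same batch label. Nothing says that the libraries of a group came from separate cultures, and a p-value here covers the variation between these 4 libraries alone, which could be technical.

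Drug metabolism runs in phases. Phase 1 enzymes expose or add a reactive group: CES enzymes cleave esters, CYP enzymes insert oxygen, and ALDH enzymes turn aldehydes into acids. Phase 2 enzymes attach a carrier: GST enzymes add glutathione and UGT enzymes add glucuronic acid. Many members also handle the body's own signals, such as retinoic acid and vitamin D, and A549 cells are known for high levels of ALDH1A1 and of genes driven by the transcription factor NRF2.

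RBM10 itself had 11.6 and 10.9 RPKM in knockdown libraries, against 35.5 and 40.8 RPKM in wild type libraries. RPKM scales a gene's reads by transcript length and library depth. The knockdown mean was 29.5% of the wild type mean, with a log2 change of -1.67 (SE 0.11, adjusted p = 1.01e-05, limma on log2(RPKM + 1)). Relative sequencing depth was inferred from the commonest ratio of low RPKM values between libraries, since the table holds no counts. It came to 84.5% and 95.6% of that of wild type replicate 2 in the knockdown libraries, and 99.0% in wild type replicate 1. The 5 epithelial markers were all in the table and summed to 2448 to 2549 RPKM in knockdown libraries and 1228 to 1357 RPKM in wild type libraries. Most of that sum was KRT18 (knockdown and wild type means of 1793 and 931 RPKM) and KRT8 (677 and 348 RPKM). KRT8, KRT18, KRT19 and EPCAM were called higher, while CDH1 had no call (means of 3.31 and 2.97 RPKM, adjusted p = 0.497, limma). Of 8 alveolar type II markers, 4 were in the table, with sums of 4.08 to 4.41 RPKM in knockdown libraries and 1.88 to 2.12 RPKM in wild type libraries. Most of these sums was ABCA3, with means of 3.16 RPKM in knockdown and 1.49 RPKM in wild type. A single marker each of leukocytes, endothelium, hepatocytes and club cells was in the table, and every one lay under 0.4 RPKM in every library. The part of these marker differences in the enzyme results was not tested.

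Of the 79 enzyme genes, 37 reached a mean of 1 RPKM in at least 1 group and were tested, and 14 of these changed (37.8%) at a Benjamini-Hochberg adjusted p under 0.05 over all genes. The same rule called 22.3% of all 10182 tested genes. The enzyme genes were chosen with earlier results of these data known, so the shares given here are no test of the families. In knockdown cells 10 enzyme genes were higher (27.03%, against 15.3% of all genes) and 4 were lower (10.8%, against 7.03% of all genes). The 4 lower genes include CES1 and its pseudogene CES1P1. Which of the pair a read came from is uncertain, so they may not be separate calls. The median log2 change was 0.08 for the tested enzyme genes and 0.02 for all tested genes. The surplus of higher calls over all genes lay at low levels. With the higher group mean from 1 to under 10 RPKM, 1082 genes were higher and 252 lower. At 10 RPKM or more, 473 were higher and 464 lower. Of the 19 enzyme genes at that level, 4 were higher and 3 lower, with a median log2 change of -0.09, against -0.06 for all such genes. Of the 37, ALDH1L2, ALDH6A1, CYP26B1 and CYP27C1 passed the level filter through knockdown libraries alone and CYP1B1 through wild type libraries alone, so their presence among the tested genes is not independent of the direction of change. Among all called genes 68.5% were higher in knockdown, but 52.5% after quantile normalization, where the calls were 1140 higher and 1031 lower. Under that scaling 8 enzyme genes were higher and 4 lower. In bulk RNA, fewer cells that make an enzyme and less of its RNA per cell cannot be told apart.

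**Figure D1:**
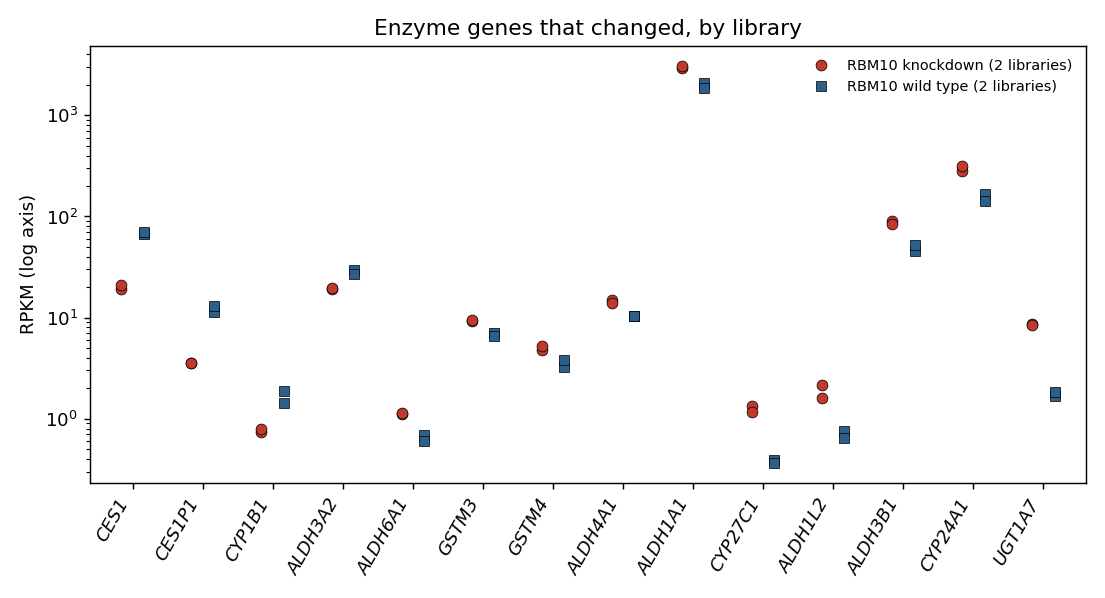
RPKM of the 14 enzyme genes that changed, on a log axis, with a red circle for each of 2 knockdown libraries and a blue square for each of 2 wild type libraries. The circles lie below the squares for CES1, CES1P1, CYP1B1 and ALDH3A2 and above them for the other 10 genes, with no overlap of the groups.

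The families did not move as blocks. Carboxylesterases had 2 lower genes, CES1 and the pseudogene CES1P1, and no higher gene among 3 tested. ALDH had 5 higher and 1 lower among 15, and CYP had 2 higher and 1 lower among 11. GST had 2 higher genes among 7, and in the UGT family the only tested gene, UGT1A7, was higher. Seen as summed RPKM with CES1P1 included, carboxylesterases gave 28.7 and 31.1 in knockdown libraries, against 84.1 and 89.6 in wild type libraries. The UGT sum was 10.9 and 11.0 RPKM in knockdown libraries, against 2.41 and 2.71 RPKM in wild type libraries. The GST sum showed no such gap, with 970 and 928 RPKM in knockdown libraries and 876 and 975 RPKM in wild type libraries.

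**Figure D2:**
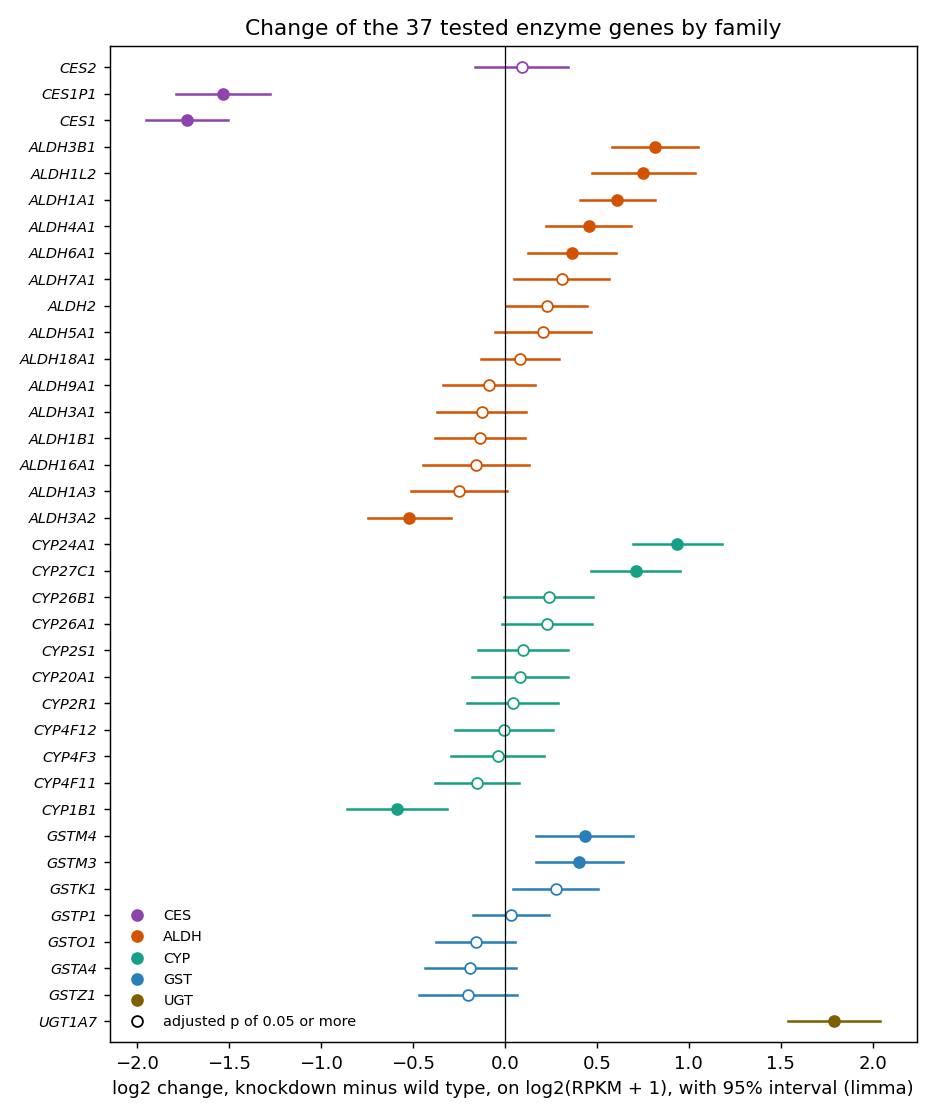
Log2 change of the 37 tested enzyme genes, knockdown minus wild type, on the log2(RPKM + 1) scale, with bars for the 95% interval from limma and open circles for genes with an adjusted p of 0.05 or more. CES1 and CES1P1 stand at the far left and UGT1A7 at the far right, while 23 genes are open circles around 0.

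Carboxylesterase 1 (CES1) had the largest negative log2 change among the tested enzyme genes on the log2(RPKM + 1) scale. It cleaves ester drugs, activates prodrugs such as oseltamivir, and is best known from the liver. CES1 (chr16:55802851-55833337, minus strand, hg38) had 19.3 and 21.2 RPKM in knockdown libraries, against 67.7 and 71.0 RPKM in wild type libraries. Every knockdown value lay below every wild type value, and the knockdown mean was 29.2% of the wild type mean. The log2 change was -1.73 (SE 0.10, 95% interval -1.95 to -1.51, adjusted p = 5.31e-06, limma).

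Its neighbour CES1P1 (chr16:55760566-55793960, plus strand), a relative of CES1 annotated as a pseudogene, had 3.57 and 3.57 RPKM in knockdown libraries, against 11.4 and 13.1 RPKM in wild type libraries. The log2 change was -1.53 (SE 0.11, adjusted p = 2.19e-05, limma). As a share of the CES1 level, CES1P1 stood at 18.5% and 16.8% in knockdown libraries and at 16.8% and 18.5% in wild type libraries, so the ratio of the genes did not separate the groups. In GENCODE v29, 20.0% of the 100-base windows of CES1 transcripts and 21.5% of those of CES1P1 occur in another gene, mainly in the other of the pair. The deposited values of this pair are therefore uncertain as to which gene a read came from.

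No other carboxylesterase was called. CES2, the intestinal type that activates irinotecan, had 4.96 and 5.34 RPKM in knockdown libraries and 4.57 and 4.98 RPKM in wild type libraries, with overlapping groups and an adjusted p of 0.604 (limma; log2 change 0.09, 95% interval -0.16 to 0.34). CES3 stayed below the test level, at 0.854 and 0.875 RPKM in knockdown libraries, against 0.396 and 0.468 RPKM in wild type libraries. CES4A overlapped between the groups and did not exceed 0.168 RPKM.

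Aldehyde dehydrogenases were the most abundant family, and a single gene carried most of it. ALDH1A1 (chr9:72900662-73080442, minus strand), which oxidises retinaldehyde to retinoic acid, had 2959 and 3089 RPKM in knockdown libraries, against 2088 and 1874 RPKM in wild type libraries. It made up 80.8% and 82.8% of the summed ALDH RPKM in knockdown libraries, against 76.7% and 72.3% in wild type libraries. The groups did not overlap, and the log2 change was 0.61 (SE 0.09, adjusted p = 0.00127, limma). With no filter on low values, which adds genes to the adjustment, the adjusted p was 0.0509.

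Of the ALDH3 genes that lie near each other on chromosome 17, ALDH3A2 was called and ALDH3A1 was not. ALDH3A2, the fatty aldehyde dehydrogenase whose loss causes Sjögren-Larsson syndrome, had 19.3 and 19.5 RPKM in knockdown libraries, against 29.6 and 27.01 RPKM in wild type libraries. It was lower with a log2 change of -0.52 (SE 0.10, adjusted p = 0.00547, limma). ALDH3A1, a cytosolic enzyme for aromatic and lipid-derived aldehydes and an NRF2 target, had 454 and 407 RPKM in knockdown libraries and 431 and 511 RPKM in wild type libraries, with overlapping groups and an adjusted p of 0.438 (limma). Its log2 change was -0.13 (95% interval -0.37 to 0.11), and the difference between the changes of the 2 genes was not tested.

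ALDH3B1 (chr11:68008578-68029282, plus strand) acts on lipid-derived aldehydes at membranes. It had 90.0 and 83.4 RPKM in knockdown libraries, against 45.6 and 52.2 RPKM in wild type libraries. The groups lay well apart, with a mean 1.77 times that of wild type and a log2 change of 0.82 (SE 0.10, adjusted p = 5.22e-04, limma).

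The other ALDH genes that changed are mitochondrial enzymes of amino acid and folate metabolism. ALDH1L2, which oxidises 10-formyltetrahydrofolate, had 1.60 and 2.15 RPKM in knockdown libraries, against 0.754 and 0.646 RPKM in wild type libraries (log2 change 0.75, SE 0.13, adjusted p = 0.00256). ALDH4A1, of proline breakdown, had 15.1 and 14.1 RPKM in knockdown libraries, against 10.3 and 10.4 RPKM in wild type libraries (log2 change 0.46, adjusted p = 0.0120). ALDH6A1, of valine breakdown, had 1.11 and 1.13 RPKM in knockdown libraries, against 0.693 and 0.602 RPKM in wild type libraries (log2 change 0.37, adjusted p = 0.0363). ALDH1L2 and ALDH6A1 passed the level filter through knockdown libraries alone. ALDH1L2 passed in every alternative run for it, while ALDH4A1 missed the threshold without knockdown replicate 1 (adjusted p = 0.107). ALDH6A1 missed it without knockdown replicate 2 (0.0663), without wild type replicate 1 (0.0909) and without wild type replicate 2 (0.168). After quantile normalization the log2 change of ALDH6A1 was 0.12 (adjusted p = 0.456). Exons of ALDH1L2 and ALDH6A1 overlap C12orf45 and BBOF1 on the other strand, and the use of strand in counting is not given in the sources used here. In addition, 34.0% of the 100-base windows of ALDH4A1 transcripts are shared with another annotated gene.

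Among ALDH genes at 10 RPKM or more that did not pass, ALDH2, the mitochondrial enzyme for acetaldehyde, had 27.5 and 26.1 RPKM in knockdown libraries and 22.4 and 23.1 RPKM in wild type libraries (adjusted p = 0.129). ALDH7A1, of lysine breakdown, had 11.7 and 12.5 RPKM in knockdown libraries and 10.4 and 8.81 RPKM in wild type libraries (adjusted p = 0.0850, and 0.0403 without wild type replicate 1). ALDH18A1, of proline synthesis, had 32.0 and 31.4 RPKM in knockdown libraries and 30.3 and 29.5 RPKM in wild type libraries. None of these 3 passed the threshold in the main test. ALDH1B1 had 11.0 and 10.8 RPKM in knockdown libraries and 11.4 and 12.9 RPKM in wild type libraries. ALDH9A1, of carnitine synthesis, had 16.6 and 16.6 RPKM in knockdown libraries and 19.3 and 16.2 RPKM in wild type libraries. ALDH16A1 had 16.01 and 13.4 RPKM in knockdown libraries and 14.9 and 18.2 RPKM in wild type libraries. These last 3 genes did not pass either.

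ALDH1A3, the other retinaldehyde dehydrogenase tested, had 3.33 and 3.89 RPKM in knockdown libraries, against 4.42 and 4.53 RPKM in wild type libraries. Its groups did not overlap, but the adjusted p was 0.156 (log2 change -0.25, 95% interval -0.51 to 0.01). ALDH5A1, of GABA breakdown, had 1.86 and 1.55 RPKM in knockdown libraries and 1.43 and 1.25 RPKM in wild type libraries (adjusted p = 0.242). Among genes without a call, exons of ALDH16A1, ALDH1A3, ALDH3A1, ALDH5A1, ALDH9A1, CES2 and GSTZ1 also overlap a gene on the other strand. ALDH1L1 and ALDH3B2 stayed under 0.034 RPKM in every library.

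Among cytochromes P450, CYP24A1 dominated. It is the mitochondrial 24-hydroxylase that inactivates vitamin D. CYP24A1 (chr20:54153449-54173973, minus strand) had 282 and 312 RPKM in knockdown libraries, against 168 and 142 RPKM in wild type libraries. The groups did not overlap, the mean was 1.92 times that of wild type, and the log2 change was 0.94 (SE 0.11, adjusted p = 2.88e-04, limma). It held 88.5% and 89.5% of the summed CYP RPKM in knockdown libraries, against 82.2% and 79.6% in wild type libraries. The vitamin D receptor VDR, which is known to drive CYP24A1, was below the test level at 0.195 and 0.240 RPKM in knockdown libraries and 0.247 and 0.185 RPKM in wild type libraries. Of the other vitamin D hydroxylases, the activating CYP27B1 had 0.331 and 0.258 RPKM in knockdown libraries and 0.308 and 0.329 RPKM in wild type libraries. The 25-hydroxylase CYP2R1 had 1.16 and 1.30 RPKM in knockdown libraries and 1.23 and 1.10 RPKM in wild type libraries (adjusted p = 0.816). Both overlapped between the groups.

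CYP27C1 (chr2:127184120-127220078, minus strand), a retinoid desaturase known from skin, had 1.34 and 1.17 RPKM in knockdown libraries, against 0.388 and 0.366 RPKM in wild type libraries. The gene passed the level filter through knockdown libraries alone. The mean was 3.33 times that of wild type, and the log2 change on the log2(RPKM + 1) scale, which understates low genes, was 0.71 (SE 0.11, adjusted p = 0.00145, limma). The retinoic acid hydroxylases CYP26A1 and CYP26B1 were tested and did not pass. CYP26A1 had 1.48 and 1.63 RPKM in knockdown libraries and 1.17 and 1.18 RPKM in wild type libraries (adjusted p = 0.168). CYP26B1 had 1.25 and 1.38 RPKM in knockdown libraries and 0.958 and 0.965 RPKM in wild type libraries (adjusted p = 0.1495).

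CYP1B1 was the only CYP gene called lower. CYP1B1 (chr2:38066973-38109902, minus strand) oxidises polycyclic aromatic hydrocarbons and oestradiol and is a known target of the aryl hydrocarbon receptor (AHR). It had 0.746 and 0.784 RPKM in knockdown libraries, against 1.89 and 1.44 RPKM in wild type libraries, and passed the level filter through wild type alone. The log2 change was -0.59 (SE 0.12, adjusted p = 0.00743, limma), and the adjusted p was 0.0547 without wild type replicate 1 and 0.0523 with no filter on low values. Exons of CYP1B1 overlap CYP1B1-AS1 and RMDN2 on the other strand. CYP1A1, the classic AHR target, was below the test level, with 0.107 and 0.0949 RPKM in knockdown libraries, against 0.425 and 0.223 RPKM in wild type libraries. AHR itself had 1.62 and 2.36 RPKM in knockdown libraries and 2.09 and 1.39 RPKM in wild type libraries, with overlapping groups and an adjusted p of 0.617 (limma).

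None of the other tested CYP genes passed. CYP4F11, a fatty acid omega-hydroxylase, was the only further CYP gene above 10 RPKM, with 11.7 and 11.5 RPKM in knockdown libraries and 13.1 and 13.0 RPKM in wild type libraries (adjusted p = 0.312). CYP2S1 had 9.44 and 8.90 RPKM in knockdown libraries and 8.09 and 8.90 RPKM in wild type libraries. CYP20A1, of unknown substrate, and the omega-hydroxylases CYP4F3 and CYP4F12 lay between 1.87 and 2.87 RPKM in knockdown libraries and between 2.04 and 2.66 RPKM in wild type libraries. Drug-oxidising genes known from the liver were low. CYP3A4 did not exceed 0.0180 RPKM in any library, and CYP2D6, which shares 13.5% of its windows mainly with CYP2D7, lay between 0.408 and 0.427 RPKM in all 4. CYP3A5 had 0.210 and 0.308 RPKM in knockdown libraries, against 0.0949 and 0.0619 RPKM in wild type libraries.

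**Figure D3:**
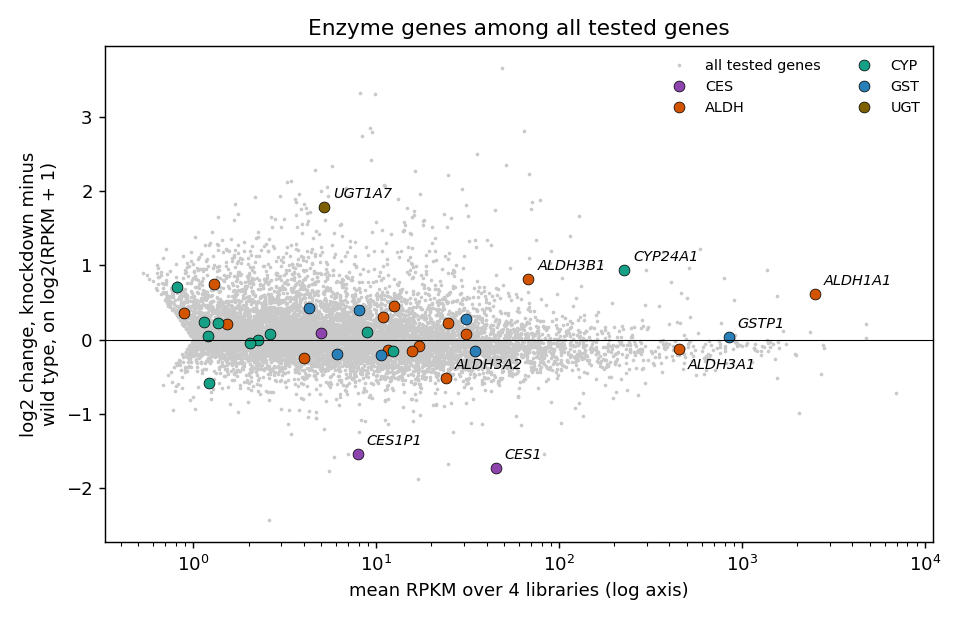
Log2 change, knockdown minus wild type, on the log2(RPKM + 1) scale against the mean RPKM over 4 libraries on a log axis, with grey points for all 10182 tested genes and coloured points for the 37 tested enzyme genes. ALDH1A1 and CYP24A1 are high-level genes above 0, GSTP1 and ALDH3A1 are high-level genes near 0, and CES1, CES1P1 and UGT1A7 lie far from 0.

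In the GST family the most abundant gene showed no detectable change, and both called genes were of the mu class. GSTP1, the pi-class enzyme and the main glutathione transferase of lung, made up between 89.6% and 90.1% of the summed GST RPKM in every library. It had 870 and 831 RPKM in knockdown libraries and 785 and 878 RPKM in wild type libraries, with overlapping groups, a log2 change of 0.03 (95% interval -0.17 to 0.24) and an adjusted p of 0.826 (limma). GSTM3 had 9.23 and 9.41 RPKM in knockdown libraries, against 6.99 and 6.60 RPKM in wild type libraries (log2 change 0.41, SE 0.11, adjusted p = 0.0229). GSTM4 had 4.83 and 5.29 RPKM in knockdown libraries, against 3.22 and 3.77 RPKM in wild type libraries (log2 change 0.43, SE 0.12, adjusted p = 0.0277). Both were higher in each knockdown library, but neither call held with each library left out in turn. GSTM3 missed the threshold without knockdown replicate 1 (0.113), knockdown replicate 2 (0.145) or wild type replicate 2 (0.0702). GSTM4 missed it without knockdown replicate 1 (0.0540), knockdown replicate 2 (0.170) or wild type replicate 1 (0.116), and after quantile normalization (0.0699). GSTM4 shares 6.51% of its windows with other genes, mainly GSTM2, and GSTM3 exons overlap the antisense gene AL158847.1.

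GSTK1, the kappa-class enzyme of mitochondria and peroxisomes, had 35.6 and 32.1 RPKM in knockdown libraries and 26.7 and 28.9 RPKM in wild type libraries (adjusted p = 0.0859, and 0.0424 after cyclic loess normalization). GSTO1, of the omega class, had 32.2 and 32.9 RPKM in knockdown libraries and 35.5 and 37.6 RPKM in wild type libraries (adjusted p = 0.269). GSTZ1, the maleylacetoacetate isomerase of tyrosine breakdown, had 10.7 and 8.89 RPKM in knockdown libraries and 10.9 and 11.8 RPKM in wild type libraries (adjusted p = 0.261). GSTA4, which conjugates the lipid aldehyde 4-hydroxynonenal, had 5.36 and 5.97 RPKM in knockdown libraries and 6.61 and 6.56 RPKM in wild type libraries (adjusted p = 0.258). None of these genes passed the threshold in the main test. GSTM1 had 0.521 and 0.826 RPKM in knockdown libraries, against 0.205 and 0.497 RPKM in wild type libraries, and shares 29.1% of its windows, mainly with GSTM2.

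UGT1A7 had the largest positive log2 change among the tested enzyme genes on the log2(RPKM + 1) scale. Its product glucuronidates phenols and metabolites of benzo(a)pyrene and is known from the upper gut and airway rather than the liver. All UGT1A genes lie in 1 locus on chromosome 2, where each has its own promoter and the same shared last exons, so that gene identity rests on the unique exon at the start of each transcript. The sequences where that exon meets shared exon 2 are shown because they are what a junction read must tell apart. Each line gives the last 30 bases of the unique exon in lower case and the first 30 bases of exon 2, which starts at chr2:233767034 on the plus strand, in capitals (GENCODE v29 transcripts, hg38).
UGT1A7: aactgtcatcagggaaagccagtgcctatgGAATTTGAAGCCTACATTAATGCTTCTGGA
UGT1A10: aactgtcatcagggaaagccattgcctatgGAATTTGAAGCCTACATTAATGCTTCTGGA
UGT1A8: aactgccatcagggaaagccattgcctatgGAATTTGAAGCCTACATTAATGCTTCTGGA
UGT1A9: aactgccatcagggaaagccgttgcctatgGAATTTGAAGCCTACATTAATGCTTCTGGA
UGT1A1: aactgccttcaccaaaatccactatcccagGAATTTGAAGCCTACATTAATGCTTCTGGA
UGT1A6: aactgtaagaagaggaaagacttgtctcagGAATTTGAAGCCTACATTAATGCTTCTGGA
Exon 2 is the same in all 6. In the last 30 bases of the unique exon, UGT1A7 differs from UGT1A10 at 1 base, from UGT1A8 at 2, from UGT1A9 at 3, from UGT1A1 at 12 and from UGT1A6 at 13.

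UGT1A7 (chr2:233681938-233773299, plus strand) had 8.69 and 8.48 RPKM in knockdown libraries, against 1.69 and 1.85 RPKM in wild type libraries. The groups were far apart, the mean was 4.85 times that of wild type, and the log2 change was 1.79 (SE 0.11, 95% interval 1.54 to 2.04, adjusted p = 8.08e-06, limma). In GENCODE v29, 37.0% of the 100-base windows of its transcripts occur in another gene, and the share is 38.7% to 75.6% in the other 8 UGT1A genes. How the authors assigned reads of the shared exons is not given in the sources used here, so the split of the values among UGT1A genes is uncertain.

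The other 8 UGT1A genes were all below the test level, and 6 of them lay above wild type in both knockdown libraries. UGT1A9 had 1.04 and 0.907 RPKM in knockdown libraries, against 0.237 and 0.141 RPKM in wild type libraries. UGT1A10 had 0.212 and 0.394 RPKM in knockdown libraries, against 0.136 and 0.0538 RPKM in wild type libraries. UGT1A1, the bilirubin-conjugating enzyme, had 0.337 and 0.205 RPKM in knockdown libraries, against 0.0320 and 0.0253 RPKM in wild type libraries. For UGT1A6, a phenol-conjugating enzyme, the values were 0.175 and 0.223 RPKM in knockdown libraries, against 0.0497 and 0.0547 RPKM in wild type libraries. UGT1A3 and UGT1A8 also lay above wild type, while UGT1A4 and UGT1A5 overlapped and did not exceed 0.0366 RPKM. UGT1A4 had the same 0.0148 RPKM in knockdown replicate 1 and wild type replicate 2, which may be a floor of the values. The wild type values of UGT1A8, 0.0238 and 0.0155 RPKM, were of similar size, so its separation may rest on very few reads. Among all 6859 genes below the test level, both knockdown values lay above both wild type values in 38.1%.

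Added up over the locus, the UGT1A genes had 10.7 and 10.5 RPKM in knockdown libraries, against 2.27 and 2.20 RPKM in wild type libraries. UGT1A7 took 81.0% of that sum in knockdown and 79.2% in wild type. The 5 UGT2 genes of the table, UGT2A3, UGT2B7, UGT2B10, UGT2B11 and UGT2B28, all overlapped between the groups and did not exceed 0.326 RPKM.

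**Figure D4:**
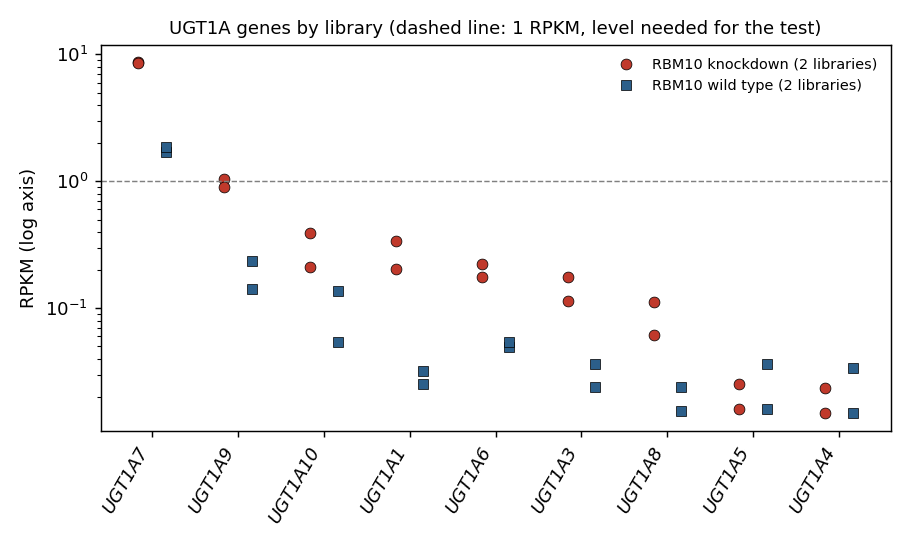
RPKM of the 9 UGT1A genes on a log axis, with a red circle for each of 2 knockdown libraries and a blue square for each of 2 wild type libraries, and a dashed line at 1 RPKM, the group mean needed for the test. Circles lie above squares for UGT1A7 and 6 further genes and overlap them for UGT1A4 and UGT1A5, and only UGT1A7 is above the line in all 4 libraries.

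For UGT1A7 and UGT1A6, which both lay above wild type, the 250 bases before each RefSeq start are shown (GRCh38.p14, plus strand, RefSeq). UGT1A1, UGT1A3, UGT1A8, UGT1A9 and UGT1A10 also lay above wild type and are not shown, so the change in level does not single out UGT1A6. Promoter windows of 250 bases before and 50 after the start were searched on both strands for 2 motifs, which do not overlap in these windows. TGACNNNGC is the core of the antioxidant response element bound by NRF2, and TNGCGTG is the core of the xenobiotic response element bound by AHR. Matches are in capitals.
UGT1A7, chr2:233681651-233681900: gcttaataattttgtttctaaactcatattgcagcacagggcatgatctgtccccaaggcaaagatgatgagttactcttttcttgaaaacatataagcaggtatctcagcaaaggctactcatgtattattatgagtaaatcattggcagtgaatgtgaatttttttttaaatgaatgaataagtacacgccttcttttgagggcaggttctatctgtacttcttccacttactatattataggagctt
UGT1A6 start 1, chr2:233691452-233691701: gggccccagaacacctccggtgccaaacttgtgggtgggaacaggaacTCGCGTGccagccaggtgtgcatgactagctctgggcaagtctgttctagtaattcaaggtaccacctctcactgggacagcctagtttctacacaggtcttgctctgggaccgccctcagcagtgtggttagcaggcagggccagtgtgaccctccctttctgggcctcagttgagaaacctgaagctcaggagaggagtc
UGT1A6 start 2, chr2:233692640-233692889: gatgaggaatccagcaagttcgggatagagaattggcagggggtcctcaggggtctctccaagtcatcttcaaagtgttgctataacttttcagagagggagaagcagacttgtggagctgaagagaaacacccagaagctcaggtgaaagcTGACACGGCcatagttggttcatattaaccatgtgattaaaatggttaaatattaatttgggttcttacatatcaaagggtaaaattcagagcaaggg
The UGT1A7 window held neither motif. The UGT1A6 windows held TCGCGTG from position -202 of the upstream start and TGACACGGC from position -98 of the downstream start. Of the other UGT1A genes, a match was found only for UGT1A5, whose groups overlapped: GCAAGGTCA from position -148, a TGACNNNGC match on the minus strand. A link between matches and RNA levels was not tested. A window was found for 60 of the 79 genes, in 74 windows. TGACNNNGC occurred in 12 of the 74, against 13.3% of 35116 windows of all genes, and TNGCGTG in 5 of the 74, against 5.51% of all windows. These are matches of letters only.

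Below the level filter were 42 of the 79 genes, with a highest group mean of 0.974 RPKM. Both knockdown values lay above both wild type values in 18 of them (42.9%), against 38.1% of all genes below the filter. Both lay below in 3, CYP1A1 and CYP4V2 among them (7.14%, against 9.94%). These shares stand near those of all such genes. The median log2 ratio of the group means, with no pseudocount, was 0.48 for the 42 enzyme genes and 0.38 for all genes below the filter. CYP11A1 had the same 0.0107 RPKM in knockdown replicate 2 and both wild type replicates, although depth differed. Over all genes, 303 had equal values in both knockdown libraries and 686 in both wild type libraries. Such values may be a floor and not a measured level, so ratios and separations at the lowest levels are uncertain. CYP51A1, of cholesterol synthesis, was just under the filter with 0.914 and 0.822 RPKM in knockdown libraries and 0.857 and 0.939 RPKM in wild type libraries, but 76.8% of its windows are shared with another annotated gene.

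Other genes of drug and aldehyde metabolism were read from a list of 75 receptors, partner proteins and enzymes outside the 5 families. The table held 61 of them, 42 were tested, and their median log2 change was 0.00. In knockdown 12 were higher (28.6%, against 15.3% of all genes) and 9 were lower (21.4%, against 7.03% of all genes). The list was drawn up with earlier results of these data known, so these shares are no test of drug metabolism genes. On the log2(RPKM + 1) scale the largest change among the higher genes was that of PTGES, the prostaglandin E synthase, with 28.1 and 27.5 RPKM in knockdown libraries, against 7.62 and 9.31 RPKM in wild type libraries (log2 change 1.61, SE 0.12, adjusted p = 1.72e-05, limma). NNMT, which methylates nicotinamide, had 20.4 and 21.7 RPKM in knockdown libraries, against 9.23 and 10.3 RPKM in wild type libraries (log2 change 1.03). The oxidases AOX1 (aldehyde oxidase) and MAOA (monoamine oxidase) were low in level and passed the level filter through knockdown libraries alone. Their fold changes of mean RPKM, 4.16 and 3.81, were above the 3.29 of PTGES. AOX1 had 1.61 and 1.90 RPKM in knockdown libraries, against 0.429 and 0.415 RPKM in wild type libraries (log2 change 0.95). MAOA had 1.15 and 1.43 RPKM in knockdown libraries, against 0.368 and 0.308 RPKM in wild type libraries (log2 change 0.77).

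FDXR and FDX1 hand electrons to mitochondrial P450 enzymes such as CYP24A1, and both were higher. FDXR had 48.3 and 42.6 RPKM in knockdown libraries, against 24.8 and 30.3 RPKM in wild type libraries (log2 change 0.71, adjusted p = 0.00282, limma). FDX1 had 15.8 and 14.8 RPKM in knockdown libraries, against 9.43 and 10.0 RPKM in wild type libraries (log2 change 0.60, adjusted p = 0.00316). POR, the electron donor of P450 enzymes of the endoplasmic reticulum, had 20.8 and 18.7 RPKM in knockdown libraries and 21.7 and 25.2 RPKM in wild type libraries, with an adjusted p of 0.168. The sulfotransferase SULT1A1, which has close copies in the genome, had 2.49 and 2.25 RPKM in knockdown libraries, against 1.06 and 1.20 RPKM in wild type libraries (log2 change 0.66).

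Among the lower genes of the list, EPHX1, the microsomal epoxide hydrolase, had 47.6 and 46.1 RPKM in knockdown libraries, against 71.1 and 76.6 RPKM in wild type libraries (log2 change -0.64, SE 0.09, adjusted p = 0.00120, limma). RDH10, which makes the retinaldehyde that ALDH1A1 uses, had 1.27 and 1.16 RPKM in knockdown libraries, against 2.54 and 2.23 RPKM in wild type libraries (log2 change -0.61, adjusted p = 0.00434). NQO1, the quinone reductase and NRF2 target, had 467 and 469 RPKM in knockdown libraries, against 657 and 646 RPKM in wild type libraries (log2 change -0.48, adjusted p = 0.00349). Each of these had no overlap between the groups. ADH5, the formaldehyde-glutathione dehydrogenase, fell by 0.50 on the log2 scale, CBR1, a carbonyl reductase, by 0.43, and DHRS4, a reductase with close copies beside it, by 0.38. CBR1 missed the threshold without knockdown replicate 2 (adjusted p = 0.145) or wild type replicate 2 (0.0516). DHRS4 missed it without knockdown replicate 1 (0.103), knockdown replicate 2 (0.117) or wild type replicate 2 (0.0652).

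Splicing was read as PSI, the share of reads on an examined junction among the junctions it competes with. The table lists only events with a deposited spread of PSI, on a scale from 0 to 1, of 0.15 or more, so genes with steady splicing are not in it. In 95.9% of events with 4 values, that spread equals the highest minus the second-lowest value. None of the 9 events of enzyme genes passed an adjusted p under 0.05 (limma) with a difference of 0.1 in PSI, against 4 of 3744 events in all (0.107%). At an unadjusted p under 0.05 with the same difference, 2 of the 9 passed, against 18.4% of all events. The groups did not overlap in 3 of the 9, against 54.2% of all events. The read counts behind each PSI are unknown.

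**Figure D5:**
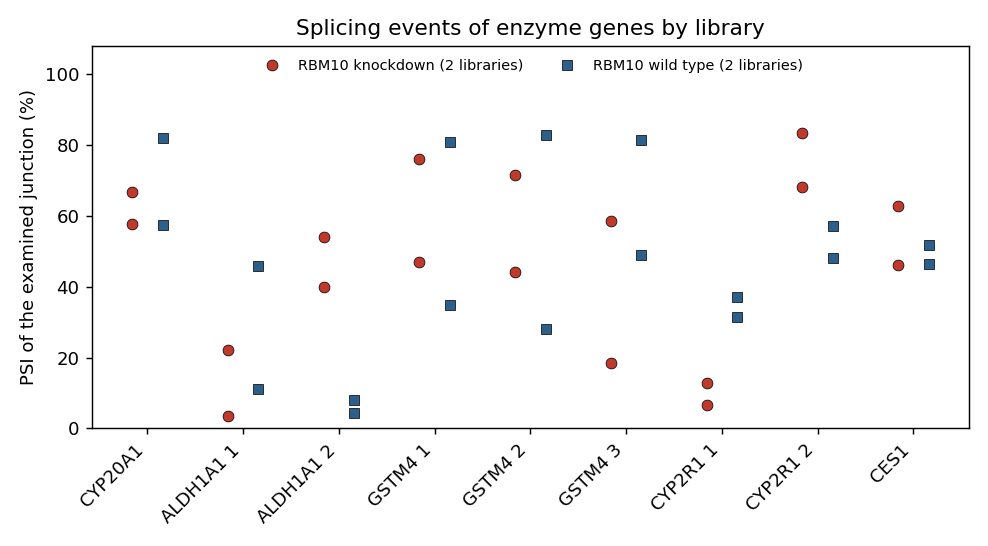
PSI in percent of the examined junction for the 9 events of enzyme genes, with a red circle for each of 2 knockdown libraries and a blue square for each of 2 wild type libraries. The numbers after a gene name tell its events apart: ALDH1A1 1 starts at chr9:73038541 and ALDH1A1 2 at chr9:73080367, CYP2R1 1 is the short and CYP2R1 2 the full form, and the GSTM4 events follow the order of the text. The groups are apart for ALDH1A1 2 and both CYP2R1 events, and overlap for the other 6.

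ALDH1A1 had 2 events that concern far-upstream starts. The junction from chr9:73080367 into the exon at chr9:72953014, which spans 127 kb, had 54.0% and 39.8% PSI in knockdown libraries, against 4.35% and 8.11% PSI in wild type libraries. The difference was 40.7 points (95% interval 18.3 to 63.0, unadjusted p = 0.00397, adjusted p = 0.259, limma). Its groups were far apart, but the value did not pass after adjustment. The junction from chr9:73038541 into the same exon, 85.5 kb long, had 22.1% and 3.64% PSI in knockdown libraries and 11.1% and 45.9% PSI in wild type libraries, with overlap. The usual start of ALDH1A1 lies just upstream within the exon that these junctions enter, so transcripts from it make no such junction. The PSI therefore compares upstream starts with each other and not with the usual start, and how much ALDH1A1 RNA comes from them was not measured here.

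CYP2R1 had a pair of events on where exon 4 begins, each with the other as its main competing junction. The short form starts 236 bases further in, at chr11:14879207, and its transcript is annotated for nonsense-mediated decay. The full form starts at chr11:14879443. Both join the exon that ends at chr11:14880136 on the minus strand. The sequences show the last 30 bases of that exon in lower case and the first 30 bases of each form of exon 4 in capitals.
CYP2R1 full exon 4: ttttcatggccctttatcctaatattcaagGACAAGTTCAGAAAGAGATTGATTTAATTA
CYP2R1 short exon 4: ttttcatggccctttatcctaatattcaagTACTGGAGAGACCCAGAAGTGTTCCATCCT
The short form had 6.67% and 12.8% PSI in knockdown libraries, against 31.4% and 37.0% PSI in wild type libraries (difference -24.5 points, 95% interval -45.3 to -3.73, unadjusted p = 0.0275, adjusted p = 0.259, limma). The full form had 83.3% and 68.1% PSI in knockdown libraries, against 57.1% and 48.1% PSI in wild type libraries (difference 23.1 points, adjusted p = 0.269). In no library did the short and full forms make up the whole, so a remainder lies outside them. Neither passed after adjustment, at a CYP2R1 level of 1.10 to 1.30 RPKM.

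CES1, whose level fell, had a choice between 3' splice sites 3 bases apart at the start of exon 2, so that the transcripts differ by the letters CAG. The long form enters at chr16:55828974 and the short form at chr16:55828971, both from the exon that ends at chr16:55833004 on the minus strand. The lines show 30 bases on each side of the joint, with the extra bases in capitals.
CES1 long: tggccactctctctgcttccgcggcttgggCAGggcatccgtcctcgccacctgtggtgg
CES1 short: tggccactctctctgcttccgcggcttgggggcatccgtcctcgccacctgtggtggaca
The short form had 62.8% and 46.0% PSI in knockdown libraries and 46.5% and 51.7% PSI in wild type libraries. The groups overlapped, and the difference was 5.28 points (95% interval -18.0 to 28.5, adjusted p = 0.771, limma).

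The CYP20A1 event, inclusion of a cassette exon, had 66.7% and 57.7% PSI in knockdown libraries and 82.1% and 57.6% PSI in wild type libraries, with overlap. The 3 events listed under GSTM4 varied more within the groups than between them. The junction from chr1:109671382 to chr1:109671473 had 76.0% and 47.0% PSI in knockdown libraries and 80.8% and 34.9% PSI in wild type libraries. The junction from chr1:109671583 to chr1:109674747 had 71.4% and 44.3% PSI in knockdown libraries and 82.8% and 28.2% PSI in wild type libraries. The junction from chr1:109669571 to chr1:109671287 had 58.6% and 18.5% PSI in knockdown libraries and 81.5% and 49.1% PSI in wild type libraries. All 3 use exons that GENCODE v29 also gives to GSTM2, the next gene on the same strand, so they may read GSTM2 RNA.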

How the data were processed

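The authors deposited a gene table that names no unit, and its values behave like RPKM. It holds 1.73% of single-exon coding genes against 74.9% of those with several exons, so spliced reads may underlie it. PSI was deposited by the authors as a fraction. The submitters' processing notes name STAR 2.6.1 and hg38, while how reads were counted, with or without strand, and how splicing was called are not given there. A table of gene IDs named 15814 of 17041 genes, GENCODE v29 named 1192, and 35 stayed unnamed.

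Members and lists were chosen with earlier results of these data known. Genes with a mean of 1 RPKM in at least 1 group were compared on log2(RPKM + 1) with limma 3.58.1 in R 4.3.3 (trend, two-sided, no covariate, Benjamini-Hochberg over 10182 genes, adjusted p under 0.05). Below that level only values are given. PSI fractions were compared with limma over 3744 events with 4 values, at a minimum difference of 0.1. Named are all members that passed, other members at 10 RPKM or more, members from 1 RPKM with fewer values, up to 6 rises and 6 falls of the other metabolism list, and all PSI events; genes below 1 RPKM and FDX1, POR, AHR and VDR were singled out after their values were seen. Data for 10182 genes were simulated with noise independent between libraries. In knockdown, 67, 67 and 66 genes were raised by 0.5, 1 and 2 on the log2 scale. There limma found 19.4%, 79.1% and 95.5% of these genes, and called 4 of 9982 unchanged genes. The data had calls in 22.3% of genes. Fewer changed genes make the adjusted threshold stricter, so the simulated rates are not those of this comparison. The deposited RPKM and PSI hold no read counts, so no counting interval was computed. Alternatives were another pseudocount, level filters, 3 scalings, no trend, a replicate block and each library left out. Windows of 100 bases of GENCODE v29 transcripts gave the shared sequence of genes. Promoters come from RefSeq.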

Additional observations from a re-analysis of the deposited data

How the results depend on the processing

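Between 7 and 11 enzyme genes were higher and 3 or 4 lower over the alternatives that kept all 4 libraries. These counts are not of 1 fixed set of genes. The 11 came with no filter on low values, where some main calls were lost and genes from below the level filter gained calls. None of the 23 tested genes without a main call gained one there. CES1, CES1P1, UGT1A7, CYP24A1, ALDH3B1, ALDH3A2, ALDH1L2 and CYP27C1 passed in every alternative run for them. Over all genes, the higher calls fell to 796 with a mean of 5 RPKM, where fewer genes are tested. The lower calls over all genes were 322 with no filter on low values, 438 with the replicate block, and 407 to 650 with each replicate left out. Of the other metabolism genes, 6 were higher with a mean of 5 RPKM, 5 were lower with no filter, and 4 to 6 were lower with each replicate left out. With no filter, ALDH1A1, ALDH6A1, CYP1B1, GSTM3, GSTM4 and CBR1 missed the threshold (adjusted p from 0.0509 to 0.0892), and ALDH6A1 missed it with cyclic loess normalization (0.259). The cause was not tested.

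Knockdown and wild type libraries with the same number deviated from their group means in opposite directions (r = -0.44 over 10182 genes). With 2 libraries per group, libraries with unlike numbers therefore deviated together. The labels tie the numbers to nothing shared, no model run here took up that pairing, and its cause was not tested. With the replicate block, 5 of the other metabolism genes were lower and ALDH6A1, GSTM3, GSTM4 and DHRS4 missed the threshold (adjusted p from 0.0752 to 0.0936). PSI events that passed numbered 62 with the block, 689 at an unadjusted p under 0.05, and 0 with any library left out.

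The genes whose log2 change turned its sign had no call. With each replicate left out in turn, the log2 change was -0.2062 to 0.0313 for ALDH9A1, -0.0027 to 0.0884 for CYP2R1, -0.1042 to 0.0949 for CYP4F12, -0.1019 to 0.0207 for CYP4F3 and -0.0465 to 0.1147 for GSTP1. CYP20A1 gave -0.0452 with quantile and -0.0006 with cyclic loess normalization. CYP2R1 gave -0.11 with quantile and -0.12 with cyclic loess normalization, and GSTP1 gave -0.0025 with median-of-ratios scaling. With a single library left in a group, that library was assumed to vary like the other group.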
